A study of Mus musculus with 16 samples.

Results

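In LPS-activated mouse B cells, 6667 narrow places in the genome carried a strong peak of RNA polymerase II (Pol2), and the 1000 of these with the least Myc signal relative to control antibody are described here. A strong summit was a 500 bp bin on chromosomes 1 to 19 with at least 20 Pol2 reads, with Pol2 at least 4 times the control level, and with the highest Pol2 within 2 kb. There were 9676 bins with 20 or more Pol2 reads. Summits were ranked by the log2 ratio of Myc over control immunoglobulin (IgG), pooled over 2 Myc and 3 IgG libraries and with 0.1 added to both sides, and the 1000 lowest were taken. Levels are given as RPM, the reads in a bin scaled to the reads of the library on chromosomes 1 to 19. The 5667 summits left over served as the comparison, together with the next 1000 in rank and the 1000 with the highest ratio.

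The series is chromatin immunoprecipitation with sequencing (ChIP-seq) of mouse splenic B and T cells in 16 libraries, made to ask where Myc sits on the genome of activated lymphocytes. Resting B cells (B0) gave 1 Myc and 1 IgG library. B cells given 25 µg/ml LPS for 4 h (B4) gave 2 Myc, 3 IgG and 1 Pol2 library, and B4 cells that also received 10058-F4, a small molecule that keeps Myc from pairing with its partner Max, gave 1 Myc, 2 IgG and 1 Pol2 library at a dose the labels do not state. T cells given 7.5 µg/ml concanavalin A gave 1 Myc and 1 IgG library after 4 h (T4) and again after 14 h (T14). The antibody used for Myc was raised against EGFP, so the signal is that of a tagged Myc protein, and the titles of the B4 Pol2 library and of the second B4 IgG library carry an unexplained wt mark. If those cells lacked the tag, Pol2 and Myc were measured in cells of different genotype. The labels do not say which libraries came from separate animals or cultures, so the spread between libraries may be technical.

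Pol2 gathers at promoters, where it starts transcription and often pauses shortly downstream, and also spreads at a lower level along genes that are being transcribed. Myc is a transcription factor that binds DNA as a pair with Max, most often at promoters that already carry Pol2 and open chromatin. IgG libraries measure the reads that come down without a specific antibody, which are also more frequent at open chromatin and at sequences that occur in many copies. The files hold aligned reads without gene names, and no annotation of their build (mm8) was used, so regions are given by position alone and neither genes nor the labelled cell types were checked.

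The libraries held 1278471 to 7433203 reads on chromosomes 1 to 19. The B4 Pol2 library held 2377368 reads and the Pol2 library with 10058-F4 held 5130471. The T14 pair stands apart, because the titles and the names of its files give opposite antibodies. It is called by its titles below, without a direction. Libraries of 1 group differed by far more than sampling noise, the chi-square of their counts divided by its degrees of freedom being 12.9 to 69.6 over 1 Mb windows, so each was counted on its own.

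The values that chose the lowest-Myc summits are given as a description. Their log2 Myc over IgG ran from -3.94 to -0.0081 with a median of -0.51, against a median of 1.35 at the other summits. The ratio was below 0 at 1019 summits in all and below -1 at 246 of the 1000. The limit fell among 30 summits of equal value, of which 11 were taken in order of position. The last taken were chr6:129241001-129241500, chr7:6882001-6882500 and chr7:126583501-126584000. The first left out were chr8:75248001-75248500, chr8:118284001-118284500 and chr9:109690001-109690500. All of these held 6 Myc and 11 IgG reads, so the bins on each side of the limit had the same pooled counts.

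The counts behind the choice were small. The lowest-Myc summits held a median of 3 Myc reads over both B4 Myc libraries and 9 reads over the 3 B4 IgG libraries, against 9 and 6 at the other summits. A single Myc read was worth 0.187 RPM over both libraries, and at 635 summits there were at most 3. Myc lay below and IgG above the median of the other summits (1.68 and 0.614 RPM) at 722 of the 1000. At 266 only Myc was low, and at 12 only IgG was high. The list was therefore chosen from both sides of the ratio. Myc was below the median of the other summits in both B4 Myc libraries at 904 of the 1000 and in neither at 7. All 3 B4 IgG libraries were above their median at 215, and none was at 54.

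By the median, Pol2 at these summits was weaker than at the other strong ones, as it was at the next 1000 in rank. B4 Pol2 ranged from 20 to 887 reads with a median of 26, or 10.9 RPM, against 30 reads or 12.6 RPM at the other summits. The next 1000 in rank had a median of 27 reads or 11.4 RPM. There were 664 lowest-Myc summits with 20 to 29 reads, and 12.2% had 40 or more, against 22.5% of the others.

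**Figure D1:**
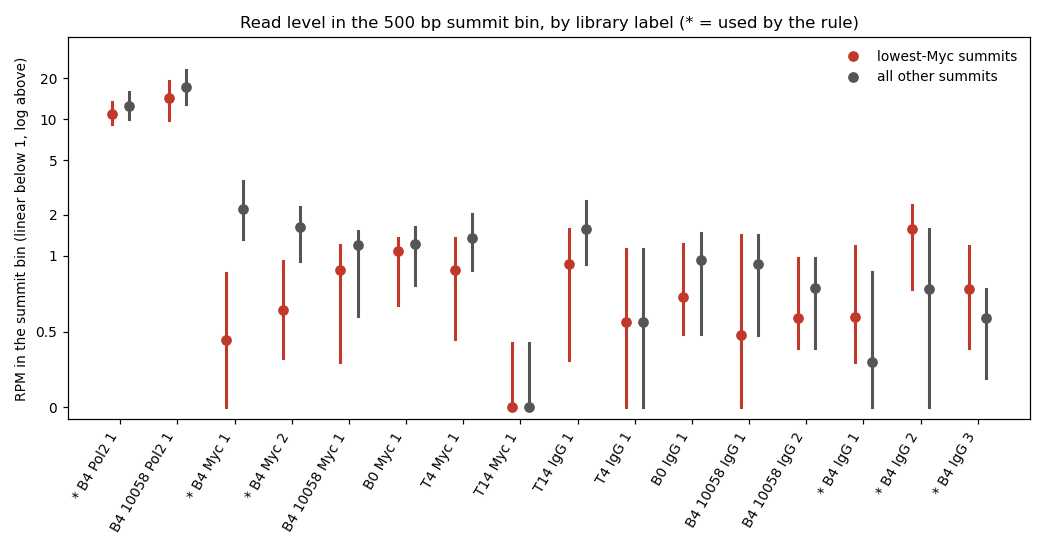
RPM in the 500 bp summit bin for each library (horizontal axis, by title; a star marks libraries that the choice used), as median (point) and quartiles (line), for the 1000 lowest-Myc summits and the 5667 others; the axis is linear below 1 and logarithmic above. B4 Myc is far lower and B4 IgG higher at the lowest-Myc summits, while in the IgG libraries not used for the choice they are equal to the others or lower.

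The lowest ratios came from summits with 0 reads in both B4 Myc libraries. At chr15:99080001-99080500, the lowest of all at -3.94, B4 Myc had 0 and 0 reads, B4 IgG had 7, 3 and 4, and Pol2 had 28. In libraries that took no part in the choice, the same bin held 12 B0 Myc reads against 4 B0 IgG reads, 5 T4 Myc reads against 1 T4 IgG read, and 109 Pol2 reads with 10058-F4. Myc with 10058-F4 had 2 reads and the library labelled T14 Myc had 1, so the B4 Myc libraries were the only ones labelled Myc with no read in this bin. At chr11:83289001-83289500, the third lowest, B4 Myc also had 0 and 0 reads, B4 IgG had 4, 1 and 6, and Pol2 had 45. There B0 Myc and B0 IgG had 1 read each, T4 Myc had 8 against 2 in T4 IgG, and Pol2 with 10058-F4 had 138. The other 8 of the lowest 10 were chr2:38465501-38466000, chr4:126746001-126746500, chr4:132431501-132432000, chr11:61465001-61465500, chr11:106490501-106491000, chr1:182320501-182321000, chr7:122042501-122043000 and chr12:87723001-87723500. None of these 10 had a B4 Myc read, and their Pol2 ran from 20 to 45 reads.

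In all, 64 of the lowest-Myc summits, and 0 of the other 5667, had no read in either B4 Myc library. The choice set this contrast, since a bin with 0 Myc reads and 1 or more pooled IgG reads falls inside the limit. A count of 0 over both libraries allows up to 0.560 RPM (3 reads), counting error only. At the 64, pooled B4 IgG ran from 1 to 14 reads with a median of 5, and B4 Pol2 from 20 to 112 reads with a median of 23. Myc reads were found in the same bins elsewhere. B0 Myc had 1 to 17 reads (median 6) and was at 0 in none of the 64. T4 Myc had 0 to 10 reads (median 3) and was at 0 in 8. Myc with 10058-F4 had 0 to 8 reads (median 2) and was at 0 in 9. In RPM, the median of B0 Myc was 0.807 against 0.730 in B0 IgG, and that of T4 Myc was 0.677 against 0 in T4 IgG. Myc with 10058-F4 had 0.604 RPM against 0.474 and 0.589 RPM in its IgG libraries, so in B0 and with 10058-F4 the level was near that of IgG. The 64 bins were therefore not empty of reads in the 3 other Myc libraries of B0, T4 and 10058-F4, with the exceptions counted above.

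Most of the strongest 10 Pol2 summits of the list fell into 2 kinds. In the first kind every library was high. At chr17:39452001-39452500, Pol2 had 887 reads without and 979 with 10058-F4, the B4 Myc libraries had 131 and 195, and the B4 IgG libraries had 211, 227 and 307. T4 IgG had 471 reads there against 308 of T4 Myc. A second bin 4.5 kb away, chr17:39456501-39457000, had 644 B4 Pol2 reads and was high in IgG in the same way. These 2 were among 3 summits of the whole set with at least 5 RPM in each of the 7 IgG libraries outside T14. The third, chr11:108827501-108828000, lay just outside the list at rank 1059. Others of the strongest 10, chr3:5843501-5844000 with 176 Pol2 reads and chr17:35839501-35840000 with 96, also had more IgG than most summits, with pooled B4 IgG of 12.2 and 5.63 RPM. At all 4 of these chromosome 3 and 17 bins, the Pol2 library with 10058-F4 was below 4 times its own IgG. The bin chr9:123777501-123778000, with 100 Pol2 reads and a pooled B4 IgG of 7.58 RPM, had only 4 T4 IgG reads and is counted in neither kind. In the Pol2 library with 10058-F4 it was within a 1.5 kb stretch of bins at or above 4 times IgG, called an enriched stretch here.

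In the second kind Pol2 was high while B4 Myc had 0 to 6 reads over both libraries and B4 IgG had 2 to 14 over its 3. At chr15:61816501-61817000, Pol2 had 119 reads, B4 Myc had 3 and 1, and B4 IgG had 0, 3 and 6. Pol2 with 10058-F4 had 225 reads there, in a continuous enriched stretch of 10.5 kb. At chr10:80335501-80336000, Pol2 had 112 reads, B4 Myc had 0 and 0, and B4 IgG had 0, 0 and 2, within a 6 kb stretch. At chr5:143171501-143172000, Pol2 had 97 reads, B4 Myc had 1 and 5, B4 IgG had 5, 3 and 6, and the stretch was 6.5 kb. At chr19:46358501-46359000, Pol2 had 95 reads, B4 Myc had 0 and 2, and B4 IgG had 5, 0 and 2. At chr17:29218001-29218500, Pol2 had 83 reads, B4 Myc had 2 and 3, and B4 IgG had 2, 6 and 4. In these 5 bins Pol2 was therefore high along a stretch longer than the typical 1.5 kb, from 3.5 to 10.5 kb.

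Whether low Myc in 1 B4 library came back in the other was read by choosing with 1 pair of libraries and measuring in the other. The 1000 summits lowest by Myc replicate 1 over IgG replicate 1 had a median log2 ratio of -1.25 in those libraries. In Myc replicate 2 over IgG replicate 3 they had 0.66, against 1.13 at the other summits and 1.5 at the 1000 highest by replicate 1. Chosen the other way, from -1.06 in replicate 2, they had 1.31 in replicate 1, against 1.85 at the others and 2.24 at the highest. Most of the low ratio was thus not seen again in the second pair, and the lists remained in the same order. Of the 1000 lowest by replicate 1, 288 (28.8%) were below 0 in replicate 2, and so were 1132 of the 5667 others. Chosen the other way, 25.6% and 16.7% were. The 2 lists shared 221 summits (22.1% of each), where each held 1000 of 6667 summits. All 221 were among the 1000 chosen on the pooled libraries.

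The B4 libraries also showed the choice in their mean profiles, taken without the 3 summits high in all IgG libraries. In B4 Myc replicate 1 the mean level at the lowest-Myc summits was 0.603 RPM in the summit bin and 0.786 RPM in the bins beside it, a dip that the other summits did not have (2.59 and 1.05 RPM). In B4 Myc replicate 2 it was 0.605 RPM in the summit bin and 0.493 RPM beside it. The choice used the summit bin alone. In B4 IgG replicate 3 the summit bin was 2.29 times its neighbours at the lowest-Myc summits, 1.61 times at the others and 1.01 times at the highest. In IgG libraries left out of the choice these ratios lay closer together. They were 1.65, 1.78 and 1.76 in B0 IgG, 1.39, 1.36 and 1.29 in T4 IgG, and 1.61, 1.57 and 1.51 in the first IgG library with 10058-F4.

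**Figure D2:**
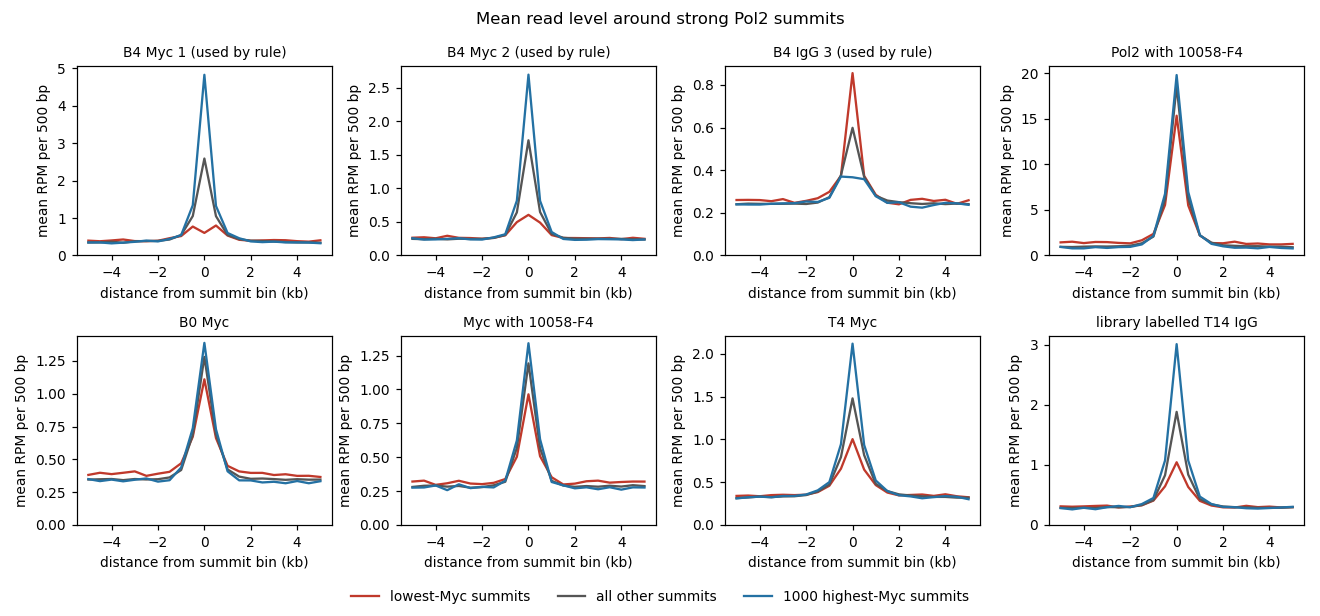
Mean RPM per 500 bp bin (vertical axis, linear and from 0, scaled per panel) by distance from the summit bin in kb, for the 1000 lowest-Myc summits, the 5667 others (which include the highest) and the 1000 highest, without the 3 summits at which all IgG libraries were high. The dip in B4 Myc replicate 1 and the raised B4 IgG are in libraries the choice used, while B0 Myc, Myc with 10058-F4, T4 Myc and the library labelled T14 IgG all peak at the summit bin, lowest for the lowest-Myc summits.

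In libraries that took no part in the choice, the lowest-Myc summits did carry Myc reads, and at T cell Myc they were again below the rest. T4 Myc had a median of 0.903 RPM in the summit bin, against 1.35 RPM at the other summits, and 68.9% of the list lay below that second value. T4 IgG had 0.564 RPM at both, which is 1 read. In 1.5 kb, T4 IgG had 1.13 RPM at the list against 1.69 RPM at the others, and T4 Myc had 2.26 against 2.94 RPM. B0 Myc had 1.08 against 1.21 RPM, with B0 IgG at 0.730 against 0.974 RPM. Myc with 10058-F4 had 0.906 against 1.21 RPM. The IgG libraries of that state had 0.474 against 0.948 and 0.589 against 0.786 RPM. At the next 1000 in rank, T4 Myc, B0 Myc and Myc with 10058-F4 had the same medians as at the list (0.903, 1.08 and 0.906 RPM). The raised B4 IgG of the list (0.593, 1.56 and 0.781 RPM, against 0.297, 0.782 and 0.586 RPM) was thus not seen in the 4 IgG libraries of B0, T4 and 10058-F4. It was not particular to the list, since the next 1000 in rank had the same 3 medians in B4 IgG.

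As a ratio over IgG in 1.5 kb around the summit, T4 Myc had a median log2 of 0.65 at the lowest-Myc summits. It was 0.76 at the next 1000, 0.96 at all others and 1.22 at the 1000 highest. Myc with 10058-F4 had 0.12, against 0.11, 0.35 and 0.48. Without IgG replicate 1 of that state it was 0.24 at the list and 0.45 at all others. B0 Myc had 0.32, against 0.32, 0.32 and 0.38, so in resting B cells the list was level with the rest. At least 2-fold Myc over IgG was found at 406 of the 1000 in T4 (40.6%, where all 6667 summits gave 47.2%). It was found at 141 with 10058-F4 (14.1%, against 18.4% of all summits) and at 168 in B0 (16.8%, against 16.5%). Each of these Myc libraries is a single sample, so differences between lists of summits were not tested.

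A fit over 13 libraries with limma, with voom weights and p-values adjusted over all 6667 summits, asked whether Myc exceeded IgG at single summits. It called 0 of the 1000 for Myc in T4, in B0 and with 10058-F4 (background 0% of all summits in each), and limma-trend also called 0. The smallest adjusted p of limma among the 1000 was 0.268, 0.996 and 0.998. At an unadjusted p below 0.05, limma gave 74 higher and 3 lower for T4 (7.4% higher, where all summits gave 8.7%). It gave 5 higher and 1 lower for B0 (0.5%, against 0.375%) and 14 higher and 10 lower with 10058-F4 (1.4%, against 2.34%). At the list these directions turned with TMM scaling on the summits, which gave 26 higher and 38 lower for T4, 4 and 15 for B0, and 11 and 16 with 10058-F4. Of all summits below that p under TMM, 283 of 468 were higher for T4, 14 of 115 for B0 and 171 of 220 with 10058-F4. The median fitted log2 difference was 0.52 in T4, 0.28 in B0 and 0.24 with 10058-F4, against 0.75, 0.28 and 0.40 over all summits. With TMM, which brought the medians of all summits to 0.01, -0.02 and 0.05, those of the list were -0.22, -0.02 and -0.10. The sign of a Myc difference over IgG therefore depends on the scaling, and in T4 and with 10058-F4 the list lay below all summits under both. Without IgG replicate 2 of the 10058-F4 state, the list's median with 10058-F4 was 0.0014, against 0.15 over all summits. The median standard errors were 1.37, 1.05 and 1.08, and no single summit, in the list or outside it, was told from IgG by Myc in this fit. The part of depth in this was not tested.

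The order in T4 was the same in classes of like Pol2, a split chosen after seeing the data. Among summits with 20 to 29 Pol2 reads, the 664 lowest-Myc ones had a T4 median of 0.65 and the 2782 others 0.86. Among those with 30 or more reads the medians were 0.65 (336 summits) and 1.05 (2885). With 10058-F4 they were 0.11 and 0.29 in the lower class and 0.21 and 0.40 in the higher. In B0 they were 0.32 and 0.32, then 0.33 and 0.33. The 221 summits low in both B4 pairs had 0.53 in T4, 0.11 with 10058-F4 and 0.35 in B0.

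**Figure D3:**
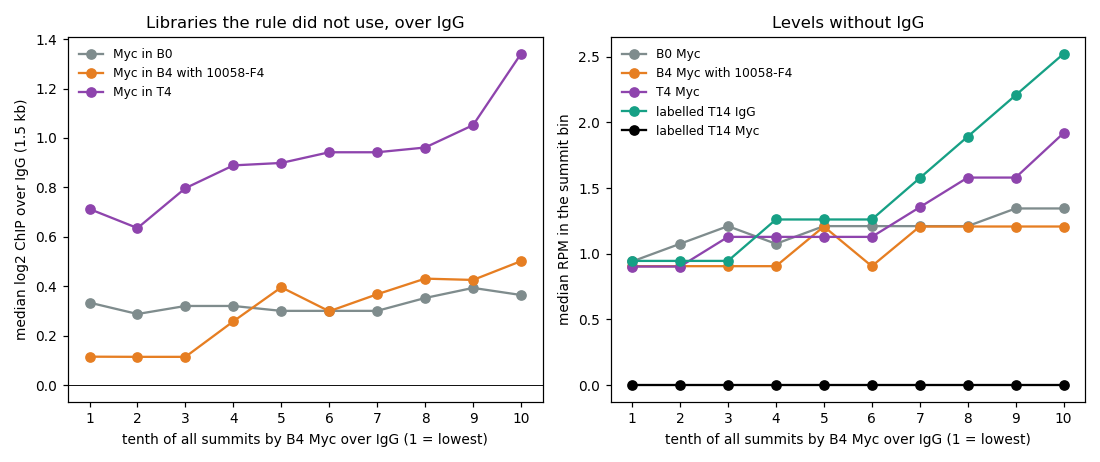
Medians over 10 equal classes of all 6667 summits in order of B4 Myc over IgG (class 1 is lowest, 666 or 667 summits each): left, log2 Myc over IgG in 1.5 kb for 3 Myc libraries; right, RPM in the summit bin without IgG for these and the 2 T14 libraries. T4 runs from 0.71 in class 1 and 0.64 in class 2 to 1.34 in class 10, while B0 stays between 0.29 and 0.39.

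The 2 T14 libraries differed in level at these summits. The library labelled T14 IgG had a median of 0.946 RPM in the summit bin of the lowest-Myc summits and 1.58 RPM at the others, and 74.9% of the list lay below the second value. Over 10 classes of all summits by B4 Myc over IgG its median ran from 0.946 to 2.52 RPM. That median was 0.946 RPM in each of classes 1 to 3 and at the next 1000 in rank. The library labelled T14 Myc had a median of 0 RPM at both, with no read at 56.5% of the list and 56.9% of the others. Its log2 ratio over the library labelled T14 IgG was -1.37 at the list, -1.62 at the next 1000, -1.98 at all others and -2.43 at the highest. It was at least 2-fold higher at 37 of the 1000 (3.7%, where all summits gave 2.16%). No test was made and no direction is drawn, since the antibodies of the pair cannot be told from the labels.

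Among summits of the list with at least 10 Myc reads in 1.5 kb, the highest ratios in other states rested on few IgG reads. In T4 the highest log2 ratio was 5.73 at chr3:54823001-54823500, with 23 T4 Myc and 0 T4 IgG reads in 1.5 kb. The next, chr3:103124501-103125000, chr4:154953501-154954000, chr11:76060001-76060500 and chr11:106815001-106815500, also had 0 T4 IgG reads, with 18 to 21 T4 Myc reads. In B0 the highest was 4.66 at chr12:3834501-3835000, with 18 Myc and 0 IgG reads. It was followed by chr4:11893501-11894000, chr14:73756501-73757000, chr4:11631501-11632000 and chr17:55903001-55903500. With 10058-F4, the highest named was 2.25 at chr8:123622001-123622500. It was followed by 2.11 at chr2:51756501-51757000, 2.11 at chr7:121809501-121810000 and 2.04 at chr6:113272501-113273000. None of these passed the limma test (smallest adjusted p 0.268), and a ratio against 0 IgG reads is set by the added 0.1 RPM.

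Pol2 itself was found again at nearly all lowest-Myc summits in the library with 10058-F4, which the choice had not used. Its median in the summit bin was 14.2 RPM, against 17.3 RPM at the others. Its log2 ratio over IgG in 1.5 kb was 3.80, against 4.02. It was at least 2-fold over IgG at 993 of the 1000 (99.3%, where all summits gave 99.8%). By limma, 980 were higher at an adjusted p below 0.05 (98%, where all summits gave 99.4%). The 2 IgG-high bins on chromosome 17 at 39.5 Mb were among those that did not pass, with fitted log2 differences of 0.16 and 0.31. Scaling by TMM on the summits themselves left 0 higher and 12 lower, where all 6667 summits gave 0 higher and 26 lower.

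Pol2 with 10058-F4 was compared with Pol2 without it, 1 library each and without a test. In RPM it was higher with the compound at 670 of the lowest-Myc summits (67%) and at 77.7% of the others, with a median log2 difference of 0.27 against 0.39. It was at least 2-fold higher at 85 (8.5%, where all summits gave 10%) and at least 2-fold lower at 48 (4.8%, where all summits gave 1.86% and the next 1000 in rank 2.4%). The summits had been chosen for high Pol2 in the library without the compound. Among summits with 20 to 29 Pol2 reads, 5.57% of the list and 1.76% of the others were at least 2-fold lower. Among those with 30 or more, 3.27% and 0.936% were.

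The 48 lowered summits had a median of 10.1 RPM without and 3.80 RPM with 10058-F4. Of these 48, 32 (66.7%) had another strong summit within 10 kb, against 30.2% of the whole list. With a neighbour that close, 10.6% of the list and 3.22% of the other summits were lowered. Without one, 2.29% and 0.814% were. In the list as a whole the level with 10058-F4 went down to 0.390 RPM, the same minimum as at the other summits. Among summits with at least 40 Pol2 reads summed over both libraries, the most lowered was chr7:24797501-24798000. This bin went from 14.7 to 1.36 RPM (35 and 7 reads, log2 -3.34). It was followed by chr11:117638001-117638500 (13.9 to 1.56 RPM), chr16:84600001-84600500 (21.9 to 3.90 RPM), chr11:87265001-87265500 (20.2 to 4.29 RPM) and chr8:3680501-3681000 (15.6 to 3.31 RPM). At 3 of these 5, on chromosomes 11 and 16, both B4 Myc libraries had 0 reads.

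The most raised summit was chr8:11008501-11009000, which went from 13.5 to 59.6 RPM (log2 2.14) within a 9 kb enriched stretch. Its next strong summit was 455.5 kb away. It was followed by chr13:23629501-23630000 (10.9 to 42.5 RPM), chr19:41392501-41393000 (9.67 to 35.9 RPM), chr6:70774001-70774500 (9.25 to 31.2 RPM) and chr16:20011501-20012000 (8.41 to 27.7 RPM). Myc with 10058-F4 had 2, 5, 2, 3 and 6 reads in these 5 bins, or at most 1.81 RPM.

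**Figure D4:**
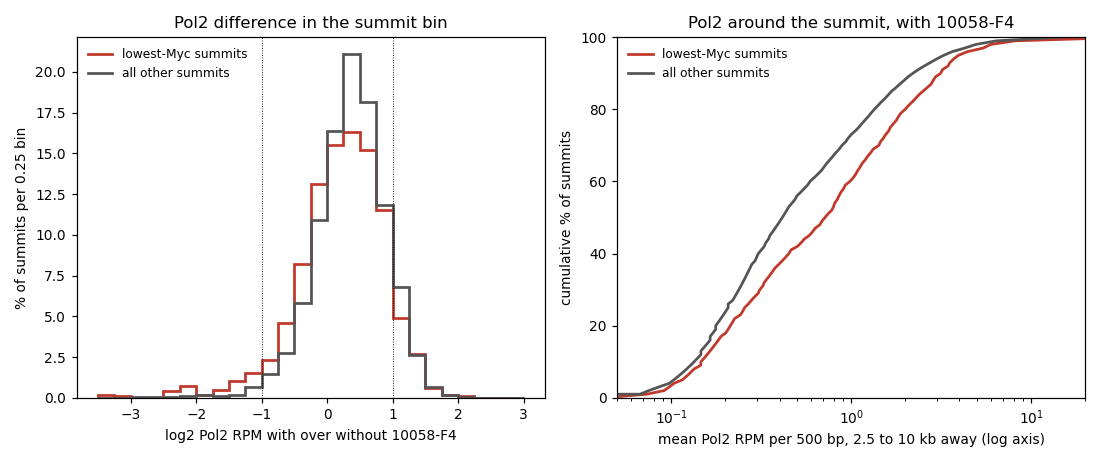
Left, share of summits (%) by log2 Pol2 RPM with over without 10058-F4 in the summit bin, in bins of 0.25, with dotted lines at 2-fold lower and higher; right, cumulative share of summits (%) by mean Pol2 RPM per 500 bp at 2.5 to 10 kb from the summit in the library with 10058-F4, on a log axis. The lowest-Myc summits have a longer left tail (4.8% at least 2-fold lower, against 1.34% of the others) and more Pol2 around them (median 0.716 against 0.414 RPM).

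The surroundings of the list were read in the same Pol2 library with 10058-F4. The summit bin held 46.6% of the Pol2 reads within 4.5 kb at the lowest-Myc summits, 49.6% at the next 1000 and 50.7% at all others, as medians. Farther out, at 2.5 to 10 kb, Pol2 stood at 0.716 RPM per bin around the list, 0.490 RPM around the next 1000, 0.414 RPM around all others and 0.359 RPM around the 1000 highest. At 395 of the 1000 it reached 1 RPM or more there (39.5%), against 27.0% of the others. With 20 to 29 B4 Pol2 reads the level was 0.579 against 0.372 RPM, and with 30 or more it was 0.959 against 0.451 RPM. As a ratio the gap was narrower between summits of like surroundings. In RPM it was not narrower where another strong summit lay within 10 kb. Without another strong summit within 10 kb the level was 0.365 against 0.298 RPM, and with one it was 2.30 against 1.92 RPM. The stretch of enriched bins was 1.5 kb at the median of both. It was 1 bin or less at 11.1% of the list, 9.2% of the next 1000 and 6.58% of all others, and at least 3 kb at 17.2%, 15.6% and 14.8%. The list thus held more of both the shortest and the longest stretches.

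The position of the Pol2 maximum was compared between the 2 Pol2 libraries. The highest bin within 2 kb was the same one at 79.9% of the lowest-Myc summits, 82.1% of the next 1000 and 86.0% of all others. It lay within 500 bp at 93.1%, 94.2% and 96.7%, so the next 1000 were close to the list.

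Strong Pol2 summits lay closer together around the list. The next summit was at a median of 25 kb from a lowest-Myc summit and 34.5 kb from another one, and within 10 kb at 30.2% against 21.9%. The next 1000 in rank lay between, with 32 kb and 26.2%. A summit of higher Pol2 lay within 10 kb of 18.5% of the list, 14.6% of the next 1000, 11.2% of all others and 8.6% of the 1000 highest. Another lowest-Myc summit lay within 25 kb of 15.2% of the list, 14.6% of the next 1000 in rank and 10.9% of all others. One of the 1000 highest lay within 10 kb at 3.8% of the list and 3.42% of the others.

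By chromosome, the share of strong summits in the list ran from 11.7% on chromosome 12 (26 of 223) to 19.6% on chromosome 6 (64 of 327), where the list takes 1000 of 6667 in all. Chromosome 4 had 18.4% (87 of 474), and chromosome 11 had the most, 107 of 682. The densest 1 Mb held 10 of the list among 31 summits, in chr4:132846501-133668500. Its first 5 had 22 to 44 B4 Pol2 reads and 2 to 7 pooled B4 Myc reads, and Pol2 was higher with 10058-F4 at all 5, by a log2 of 0.18 to 0.82.

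Read length moved with the libraries: the first B4 Myc and IgG libraries had reads of 24 to 30 bases, the T cell libraries 25, and the others 45. The choice itself used libraries of both kinds, and the part of read length in the low Myc signal was not tested.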

How the data were processed

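The authors deposited aligned reads in BED form, 1 line per read with first and last position, length and strand, and no other measured value; the submitters' processing notes name CASAVA 1.0, Bowtie 0.12.7 and mm8, with settings not given in the sources used here. Positions may start at 0 or at 1, so coordinates may be off by 1 base. Read midpoints were counted in 500 bp bins from every deposited read, with pooled libraries as summed reads over summed totals. Coordinates are 1-based bins. Ratios used 0.1 RPM on both sides. An enriched stretch is the run of bins with the summit in which Pol2 with 10058-F4 was at least 4 times (its IgG + 0.1 RPM).

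Tests used limma 3.58.1 with voom (R 4.3.3) on 1.5 kb counts of 13 libraries, with at least 20 reads in total, 4 residual degrees of freedom, scaling by chromosome 1 to 19 reads and Benjamini-Hochberg adjustment over all summits; a single library was assumed to vary like the replicated groups. The scripts were tested on simulated data. Other work used Python 3.11.15. Members, lists and tests were chosen with earlier results of these data known. Regions named are the 10 lowest in ratio, the 10 with most Pol2 and 3 on each side of the limit. The 5 extremes of each readout and the first 5 of the densest 1 Mb are also named. Extremes were taken among summits with at least 40 Pol2 reads summed over both Pol2 libraries, or at least 10 Myc reads in 1.5 kb. Of these, 1 on chromosome 18 is counted only. The X chromosome was left out by the rule. A count of 0 is given with a limit of 3 reads.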

Additional observations from a re-analysis of the deposited data

Results flagged for a closer look

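At the lowest-Myc summits the library labelled T14 Myc lay below the library labelled T14 IgG, with a median log2 ratio of -1.37, whereas Myc over IgG in T4 had a median of 0.65. The signs of the 2 T cell times are opposite, and this difference was not tested. The titles and the file names of the T14 pair give opposite antibodies.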

How the results depend on the processing

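Over 172 alternative values, 137 stayed the same, 34 moved and 1 turned round. A median counted as the same inside the 95% interval of the median reported, and a number of calls within 1.5-fold of that reported. The 137 include 14 values each for Myc calls in T4, in B0 and with 10058-F4. These were 0 in every setting, as they were over all summits. The median of the lowest-Myc summits stayed below that of the others in 16 of 16 settings for T4, 18 of 18 for Myc with 10058-F4, 18 of 18 for Pol2 over IgG and 14 of 14 for the Pol2 difference, but in 8 of 16 for B0. With 1 RPM added, the median log2 was 0.22 in B0, 0.084 with 10058-F4, 0.45 in T4, -0.79 for the T14 labels and 3.23 for Pol2 over IgG, and the choices by 1 replicate read 0.36 and 0.55. In 500 bp the medians were 0.40, 0.11, 1.13, -2.05 and 4.17. In 2.5 kb B0 had 0.27, the T14 labels -1.22, Pol2 over IgG 3.49 and the Pol2 difference 0.37. Scaled by background bins of 10 kb, B0 had 0.39, T4 0.79, the T14 labels -1.61 and Pol2 over IgG 5.04. With at least 40 Pol2 reads, 1000 of 1397 summits are taken and 122 are shared. In that setting Myc with 10058-F4 had 0.27, T4 0.91, the T14 labels -1.90 and Pol2 over IgG 4.38. The Pol2 gaps to the other summits were small there, with 4.42 at the others for Pol2 over IgG. The Pol2 difference was 0.251 against 0.253. Only with 20 to 29 Pol2 reads, a split chosen after seeing the data, Pol2 over IgG was 3.65. Read in 1.5 kb, the choice by replicate 2 gave 0.92 in replicate 1.

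TMM scaling on the summits turned the Pol2 call, since it sets the overall enrichment at the summits to 0. With it, 0 of the 1000 were higher and 12 lower, where all 6667 summits gave 0 and 26. Leaving out each replicated library in turn, the median was 0.30 to 0.35 in B0, 0.081 to 0.24 with 10058-F4 and 0.65 to 0.65 in T4. It was -1.60 to -1.37 for the T14 labels, 3.77 to 3.87 for Pol2 over IgG and 0.27 to 0.33 for the Pol2 difference. Pol2 calls ran from 892 to 985 of the 1000 and from 6261 to 6637 of all 6667 summits, with 0 Myc calls. The list itself changed more: 582 of 1000 were kept without B4 Myc replicate 1, 588 without replicate 2, and 815, 846 and 697 without IgG replicates 1, 2 and 3. The first and the repeat libraries of B4 Myc and IgG share a mark in their titles and, in each pair, a read length. No shared batch or animal is given (correlation of deviations 0.0547). With a replicate block for these pairs, 987 of the 1000 were called for Pol2 (6642 of all 6667 summits) and 0 for Myc. Without the block on the same libraries, 985 were called for Pol2 (6637 of all summits). Single summits of the list held a median of 3 reads over both B4 Myc libraries in the summit bin, and most states had 1 Myc library. The part of either in the lack of Myc calls was not tested.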
